A study of Mus musculus with 5 samples.

Results

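The binding of NEUROD2 was described around 9 genes of Reelin signalling and radial migration, taken as a named list out of 21938 protein-coding genes of the mouse annotation. The list holds the secreted ligand Reln, the receptors Vldlr and Lrp8, the adaptor Dab1, the kinase activator Cdk5r1, the microtubule and dynein proteins Dcx and Pafah1b1, and the small GTP-binding proteins Rnd2 and Rnd3. Each gene was searched across its body plus 50 kb on each side in the GRCm38 (mm10) genome. At least 1 NEUROD2 peak lay there for 8 of the 9 genes, and for 55.3% of all protein-coding genes. The 9 spans held 65 of the 19562 peaks of the series.

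The study carried out ChIP-Seq, in which DNA fragments bound by a protein are recovered with an antibody and sequenced, on cerebral cortex of untreated BALB/c pups at postnatal day 0. Per the paper's methods the cortices of littermates were pooled. Per the labels, the 3 NEUROD2 libraries were made with ab168932 (antibody 1), ab104430 (antibody 2) and ab109406 (antibody 3), with 1 library for each. A GFP antibody (sc-8334) gave the control reads for peak calling, and input DNA was also sequenced but is not used here. Because the peak lists hold no read counts and no expression values, the depth behind each score is unknown, the dissected tissue could not be checked against marker genes, scores carry no replicate error, and no test was made.

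NEUROD2 is a basic helix-loop-helix transcription factor of excitatory cortical neurons, and proteins of this family bind the E-box, the letters CANNTG. Reelin, secreted in the developing cortex chiefly by Cajal-Retzius cells of the outermost layer, binds the receptors VLDLR and APOER2 (the product of Lrp8) on migrating neurons, which leads to phosphorylation of DAB1 inside the cell. Loss of Reelin, of DAB1 or of both receptors disturbs the layering of the cortex, and the other genes of the list take part in the migration of cortical neurons.

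Overlapping peaks of any antibody were joined into merged sites, and a site with a peak of all 3 antibodies, the study's criterion for a site of high confidence, is called shared. Merging gave 2088 shared sites in the series, and the authors' own table holds 2071. The 9 spans held 39 merged sites, of which 9 were shared, 8 had peaks of antibodies 1 and 2, 21 had a peak of antibody 2 alone and 1 had a peak of antibody 1 alone. The E-boxes of 7 of these sites are shown first, because their number and their form are compared below. Each sequence is the central 200 bp of a site, read 5′ to 3′ on the plus strand of GRCm38, with E-boxes in capitals. The first 3 are the shared sites of Dab1, which are among the 4 highest scoring shared sites of the list.
Dab1, upstream, chr4:103576429-103576628: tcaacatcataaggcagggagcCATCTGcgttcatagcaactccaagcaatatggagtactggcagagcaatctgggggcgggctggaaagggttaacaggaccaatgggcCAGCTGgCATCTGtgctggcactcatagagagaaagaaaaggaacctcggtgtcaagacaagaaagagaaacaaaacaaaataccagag
Dab1, intron 9, chr4:104706335-104706534: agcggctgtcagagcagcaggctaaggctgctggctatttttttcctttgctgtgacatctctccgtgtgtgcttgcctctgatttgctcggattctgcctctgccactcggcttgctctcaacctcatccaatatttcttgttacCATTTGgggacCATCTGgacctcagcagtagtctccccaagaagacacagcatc
Dab1, intron 1, chr4:104439761-104439960: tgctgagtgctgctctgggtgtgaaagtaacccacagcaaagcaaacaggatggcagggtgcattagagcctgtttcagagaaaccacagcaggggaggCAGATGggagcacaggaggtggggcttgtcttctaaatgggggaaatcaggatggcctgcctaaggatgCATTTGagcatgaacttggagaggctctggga

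The next 4 are the only shared site that antibody 1 scored highest, the site of 2 antibodies with the most central E-boxes, a shared site without an E-box at its centre, and the only Reln site seen by more than 1 antibody.
Rnd2, downstream near, chr11:101477842-101478041: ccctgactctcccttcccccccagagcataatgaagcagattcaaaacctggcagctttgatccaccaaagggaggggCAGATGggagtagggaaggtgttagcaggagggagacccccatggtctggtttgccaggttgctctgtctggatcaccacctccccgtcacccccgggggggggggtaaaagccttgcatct
Rnd2, downstream far, chr11:101485501-101485700: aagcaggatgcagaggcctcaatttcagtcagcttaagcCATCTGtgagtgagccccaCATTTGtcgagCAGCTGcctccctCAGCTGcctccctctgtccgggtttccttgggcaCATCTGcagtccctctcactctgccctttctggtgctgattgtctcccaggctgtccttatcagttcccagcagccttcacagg
Rnd3, intron 2, chr2:51146196-51146395: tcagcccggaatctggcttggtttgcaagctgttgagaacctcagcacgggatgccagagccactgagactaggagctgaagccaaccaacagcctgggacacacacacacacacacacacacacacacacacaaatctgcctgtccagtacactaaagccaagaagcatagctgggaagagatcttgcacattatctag
Reln, intron 10, chr5:22093217-22093416: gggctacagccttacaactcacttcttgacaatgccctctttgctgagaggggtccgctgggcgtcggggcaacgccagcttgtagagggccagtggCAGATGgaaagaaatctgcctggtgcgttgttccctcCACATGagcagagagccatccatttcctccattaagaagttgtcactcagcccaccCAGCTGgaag

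A shared site lay in the span of 5 of the 9 genes, namely Dab1 with 3 sites, Lrp8 and Rnd2 with 2 each, and Rnd3 and Pafah1b1 with 1 each. Over all protein-coding genes this share was 15.6%. The chance of holding a site grows with the length searched, and the share was 12.3% among short genes (up to 9.2 kb), 15.3% among genes of middle length and 19.2% among long genes (over 31.9 kb), in classes of equal size. Of the list, 6 genes were long, of which Dab1, Lrp8 and Pafah1b1 had a shared site and Reln, Vldlr and Dcx had none. Rnd3 was the 1 gene of middle length, and of the 2 short genes Rnd2 had shared sites and Cdk5r1 had none. Counting only the gene bodies, 4 of the 9 genes held a shared site (all but Rnd2 of the 5), against 5.20% of protein-coding genes. The share for bodies alone was not split by gene length, and of these 4 genes only Rnd3 was not long. A peak of any antibody in the span, which 8 of the 9 genes had, was found for 55.3% of all protein-coding genes and for 65.1% of the long ones. The list was drawn up with earlier results of these data known, and these shares are given as a description.

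**Figure D1:**
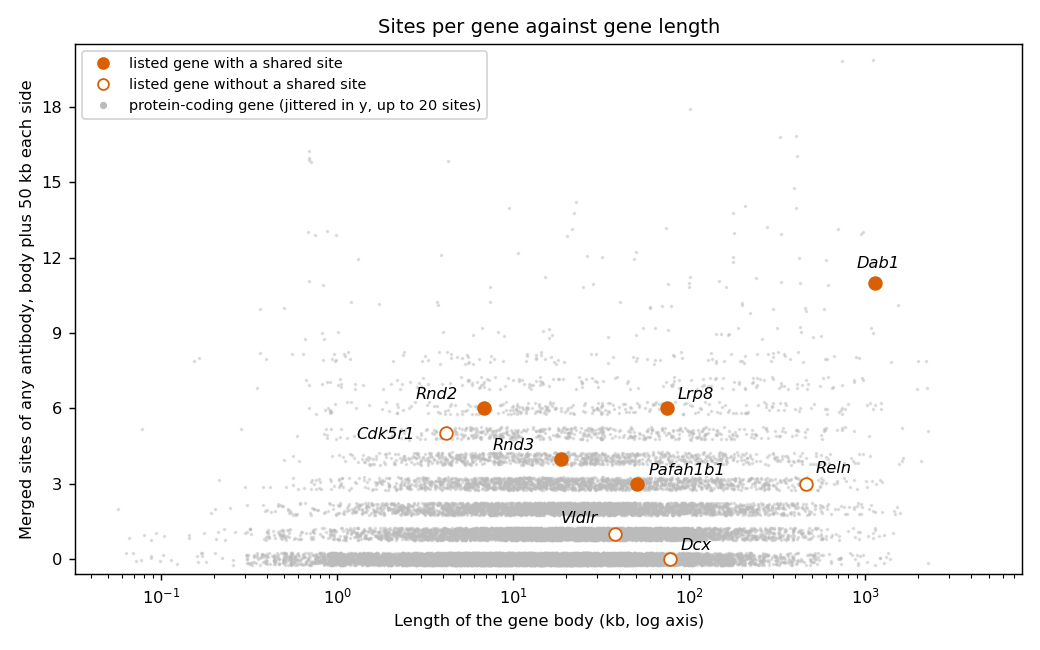
Number of merged sites of any antibody in the gene body plus 50 kb on each side (y axis) against the length of the gene body in kb (x axis, log scale) for protein-coding genes (grey, jittered in y) and the 9 listed genes (circles, filled where the gene had a shared site). Dab1, with 11 sites, was the listed gene with the most sites, Dcx lay at 0, and 4 protein-coding genes with more than 20 sites are not drawn.

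The spans of the list covered 2.76 Mb and held 14.2 merged sites and 3.27 shared sites per Mb. The same spans of all protein-coding genes, joined where they overlapped, covered 1668 Mb and held 6.36 merged and 1.04 shared sites per Mb. Dab1 alone made up 1.23 Mb of the list, and without it the densities were 18.3 merged and 3.92 shared sites per Mb. Antibody 2 alone gave 53.8% of the merged sites of the list and 52.2% of all 12637 merged sites. Shared sites made up 23.1% of the merged sites of the list and 16.5% of all.

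**Figure D2:**
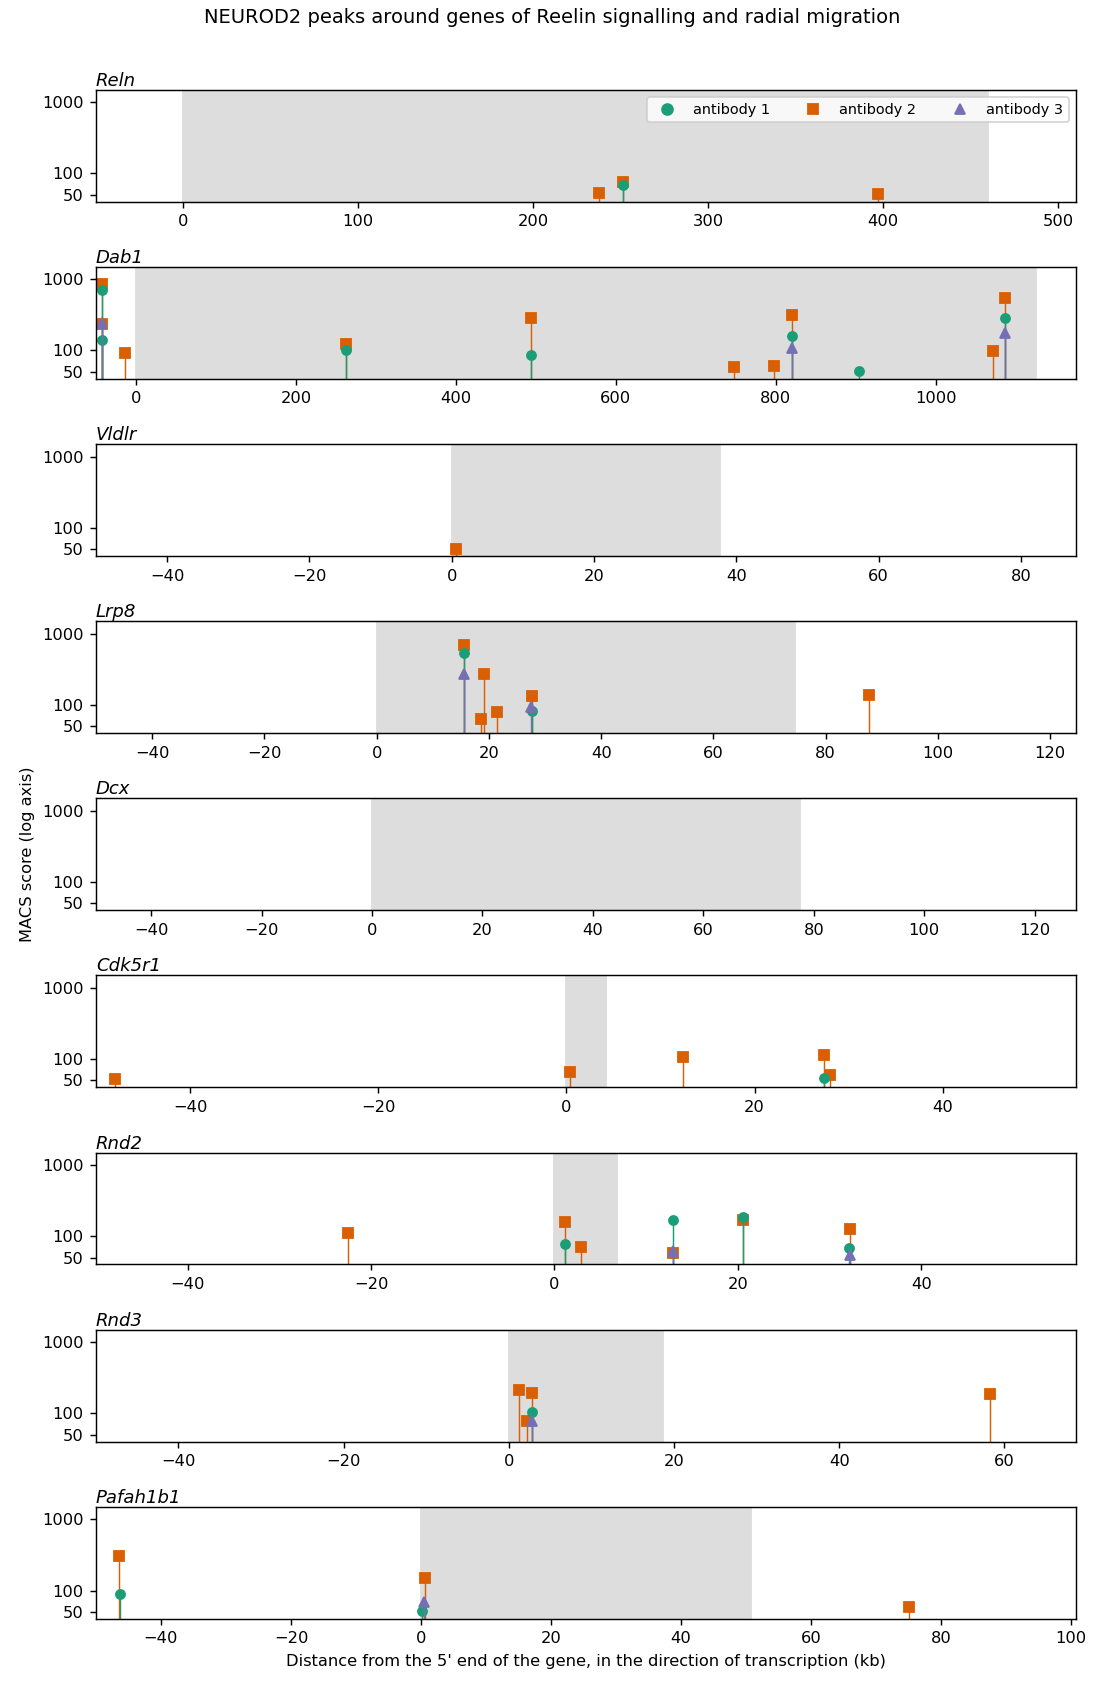
Peaks around the 9 genes, drawn by the distance of the peak midpoint from the 5′ end of the gene in kb in the direction of transcription (x axis, 1 scale per panel) and the MACS score (y axis, log scale), with the gene body in grey and 1 marker shape per antibody. Peaks of all 3 antibodies coincide at 3 places around Dab1, 2 in Lrp8, 2 near Rnd2, 1 in Rnd3 and 1 in Pafah1b1, and Dcx has no peak.

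Reln, the ligand, spans 460249 bp of chromosome 5 on the minus strand (chr5:21884454-22344702) and had 3 merged sites, none of them shared. The site in intron 10, 251 kb from the 5′ end of the gene (chr5:22093181-22093453), scored 68.79 with antibody 1 and 74.96 with antibody 2, and had no peak of antibody 3. Its 3 E-boxes, all within the central 200 bp printed above, were a CAGATG 1 bp from the midpoint, a CACATG and a CAGCTG. The remaining 2 sites, in introns 8 and 44, had a peak of antibody 2 alone, with scores of 52.06 and 51.81. The lowest score that the lists hold is 50. The Reln promoter had no peak of any antibody within 1000 bp of its 10 annotated transcription start sites (TSSs). At least 3 merged sites, as Reln had, were found around 20.9% of long protein-coding genes.

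The receptors differed from each other. Vldlr, on the plus strand of chromosome 19 (chr19:27216484-27254231), had 1 site, a peak of antibody 2 with a score of 50.04, the lowest among all peaks of antibody 2 alone around the listed genes. Its midpoint was 10 bp from a Vldlr TSS, and it held 4 E-boxes, of which 1 lay in the central 200 bp.

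Lrp8, on the plus strand of chromosome 4 (chr4:107802261-107876840), had 6 merged sites, and 5 of them lay in intron 2 between 15.5 and 27.6 kb from the 5′ end of the gene. The first of these was shared and scored 535.6 with antibody 1, 692.93 with antibody 2 and 268.6 with antibody 3. All 3 scores lay above the medians of the 2088 shared sites of the series, which were 166.44, 296.12 and 100.1, and the sum of the scores ranked 205 of 2088. The second shared site (chr4:107829597-107830136), 27.6 kb from the 5′ end, scored 80.92, 130.78 and 92.1 and ranked 1860. It lay 978 bp from the start of the antisense transcript Lrp8os1, so that by the study's rule of 1000 bp it counts as a promoter site, although it lies inside Lrp8. Between the shared sites, 3 peaks of antibody 2 alone scored 62.96, 273.08 and 80.01, at 18.6, 19.1 and 21.5 kb from the 5′ end. The peak of 273.08 was the highest score of any site with 1 antibody around the 9 genes. Each of these 3 sites had 4 other sites within 10 kb of its midpoint, and 1.17% of the 12631 merged sites on the assembled chromosomes had at least 4. A sixth site, of antibody 2 alone with a score of 136.26, lay 87.7 kb from the Lrp8 start, 92 bp from a start of the neighbouring gene 0610037L13Rik. At least 2 shared sites, as Lrp8 had, were found around 4.16% of long protein-coding genes.

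Dab1, the adaptor that both receptors bind, had 11 merged sites, the most of the list, along a body of 1125486 bp on the plus strand of chromosome 4 (chr4:103619359-104744844). The annotation places the start of its principal coding transcript at position 104367590, far inside this body, and the first part of the body belongs to longer transcripts. The highest scoring site of the list (chr4:103576193-103576865) lay 42.8 kb upstream of the body, in sequence between genes. It scored 719.24 with antibody 1, 848.07 with antibody 2 and 246.12 with antibody 3, and the sum of 1813.43 ranked 145 of 2088, so that 6.94% of shared sites had a sum at least as high. The site held 6 E-boxes, with a CAGCTG 13 bp and a CAGATG 20 bp from its midpoint. Its closest protein-coding TSS was that of Dab1, 42830 bp away. A separate site of antibodies 1 and 2, with scores of 140.38 and 232.96, lay 41.8 kb upstream.

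Inside Dab1, the shared site in intron 9 of the principal transcript (chr4:104706159-104706711) scored 281.64, 543.07 and 173.74 with antibodies 1, 2 and 3, each above the median of all shared sites, and ranked 433. The deposited table lists this site as intergenic, while the annotation used here places it in the Dab1 intron, and the closest protein-coding TSS was that of C8b, 59882 bp away. The shared site in intron 1 (chr4:104439610-104440113) scored 160.58, 312.7 and 108.03, close to the medians of the series, and ranked 1015. A CAGATG lay 1 bp from its midpoint, as the sequence printed above shows. Upstream of the principal transcript, within the body, 2 sites of antibodies 1 and 2 scored 100.93 and 123.58 at 263 kb, and 86.68 and 283.58 at 494 kb from the 5′ end of the body. At the principal TSS itself there was a peak of antibody 2 alone, with a score of 58.25 and a midpoint 148 bp from the TSS. The 5 Dab1 sites with 1 antibody ranged from 51.11 to 96.69, and the one at 51.11 was the only site of antibody 1 alone in the list. At least 3 shared sites, as Dab1 had, were found around 0.675% of all and 1.04% of long protein-coding genes. Per length, Dab1 was not the densest gene, with 2.45 shared sites per Mb against 11.5 for Lrp8 and 18.7 for Rnd2.

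Cdk5r1, which encodes the p35 activator of the kinase CDK5, is a gene of 1 coding exon on chromosome 11 (chr11:80477023-80481184, plus strand). It had 5 merged sites and no shared site. The 1 site with 2 antibodies (chr11:80504148-80504647), 27.4 kb from the 5′ end of the gene, scored 53.47 with antibody 1 and 114.1 with antibody 2, and none of its 4 E-boxes lay in the central 200 bp. This site and those at 12.4 and 28 kb lay in introns of the neighbouring gene Myo1d. A peak of antibody 2 with a score of 65.2 covered the start of the gene, with its midpoint 337 bp from a Cdk5r1 TSS in the 5′ untranslated region, and held no E-box in 802 bp. The sites with 1 antibody scored between 51.58 and 108.42, and the lowest of them lay 375 bp from a TSS of the neighbouring gene Psmd11. At least 5 merged sites were found around 4.49% of short protein-coding genes.

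Of the genes for the microtubule and dynein machinery, Dcx, which encodes the microtubule-binding protein doublecortin (chrX:143855842-143933311, minus strand), was the only listed gene with no peak of any antibody in its span. Peaks under the score threshold of the lists could not be seen. Pafah1b1 encodes LIS1, a regulator of dynein (chr11:74673949-74724670, minus strand), and had the only shared site of the list within 1000 bp of the gene's own TSS, where 2.82% of protein-coding genes had one. This site (chr11:74723430-74724722) covered the first exon, in the 5′ untranslated region, with its midpoint 218 bp from a TSS. It scored 50.69 with antibody 1, 147.69 with antibody 2 and 68.93 with antibody 3 and ranked 1939, and the score of antibody 1 was near the lowest in its list. With 1293 bp it was the longest of the 9 shared sites, and it was the only one of them with no E-box in its whole length. The midpoints of its 3 peaks spanned 381 bp, against at most 91.5 bp at the other 8 shared sites. A second site around Pafah1b1 had peaks of antibodies 1 and 2, with scores of 88.03 and 304.07, and lay 173 bp from a TSS of the neighbouring gene Mettl16. The remaining site, of antibody 2 alone with a score of 58.64, lay 37 bp from a TSS of Cluh.

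Rnd2 and Rnd3 encode atypical small GTP-binding proteins that take part in the migration of cortical neurons. Rnd2, a gene of 6855 bp on the plus strand of chromosome 11 (chr11:101464999-101471853), had 6 merged sites and the highest density of the list, with 56.2 merged sites per Mb. Its shared site 12.9 kb from the 5′ end of the gene, downstream of the body (chr11:101477744-101478140), scored 167.25 with antibody 1, 57.99 with antibody 2 and 62.63 with antibody 3, and ranked 1898. It was the only one of the 9 shared sites where antibody 1 scored highest, as at 13.7% of all shared sites, and where antibody 2 scored lowest, as at 1.87%. The next site, 20.6 kb from the 5′ end (chr11:101485395-101485807), again scored higher with antibody 1 (186.29) than with antibody 2 (169.61) and had no peak of antibody 3. It held 6 E-boxes, 5 of them in the central 200 bp, where 2 were CAGCTG and 2 were CAGATG. A further shared site 32.2 kb from the 5′ end (chr11:101496972-101497431) scored 69.3, 125.74 and 53.81, held 7 E-boxes, and lay inside a neighbouring gene whose TSS was closer than that of Rnd2. At the head of the gene, a site of antibodies 1 and 2 with scores of 76.67 and 157.77 (chr11:101465916-101466327) lay 637 bp from a Rnd2 TSS and 109 bp from a TSS of Vat1, and its 3 E-boxes were all CAGCTG. At the start of the principal transcript, a peak of antibody 2 alone scored 70.39, centred 256 bp from the TSS. The sixth site, 22.5 kb upstream of the gene, was a peak of antibody 2 alone with a score of 110.62, lay 84 bp from a TSS of Rpl27 and held no E-box. At least 2 shared sites were found around 2.15% of short protein-coding genes.

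Rnd3, on the minus strand of chromosome 2 (chr2:51130438-51149111), had 3 of its 4 merged sites in intron 2, at 1.26, 2.18 and 2.82 kb from the 5′ end of the gene. The site at 2.82 kb (chr2:51146077-51146515) was shared and scored 105.32, 190.36 and 78.84 with antibodies 1, 2 and 3, each below the median of all shared sites, and ranked 1631. Its single E-box, a CAGATG, lay 124 bp from the midpoint and so outside the sequence printed above. The other two intronic sites had a peak of antibody 2 alone, with scores of 215.19 and 77.31, and each held 1 E-box. The fourth site, with a score of 186.31 for antibody 2 alone, lay 58.2 kb from the 5′ end, past the end of the gene, and held 6 E-boxes. The peak of antibody 2 at 1.26 kb thus scored higher than the peak of the same antibody at the shared site.

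A merged site had its midpoint within 1000 bp of an own TSS in 6 of the 9 genes (Dab1, Vldlr, Lrp8, Cdk5r1, Rnd2 and Pafah1b1), against 19.6% of protein-coding genes. Except for the shared site of Pafah1b1 and the site of 2 antibodies at the head of Rnd2, these promoter sites rested on antibody 2 alone, with scores from 50.04 to 80.01. They were 5 of the 7 promoter sites of the list, and over all protein-coding promoters antibody 2 alone likewise made up 65.5% of 4471 sites. The genes have several annotated TSSs, from 2 in Cdk5r1 to 11 in Lrp8, and the Lrp8 site lay 625 bp from an internal TSS in intron 2 and not at the first exon. By the location of their midpoint relative to the TSSs of all annotated genes, 13 of the 39 merged sites were at promoters, 1 in an exon, 19 in introns and 6 between genes. Among the 9 shared sites, 2 were at promoters, 1 in an exon, 4 in introns and 2 between genes, and over all shared sites 30.9% were at promoters, 4.21% in exons, 34.8% in introns and 30.1% between genes. The exon site lay 32.2 kb from the 5′ end of Rnd2, outside that gene, and the deposited table lists it as intronic. RefSeq promoters of GRCm38, 300 bp each, were matched for 7 of the 9 genes, and 7 of their 12 promoters held an E-box, against 72.3% of all 32851 promoters.

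**Figure D3:**
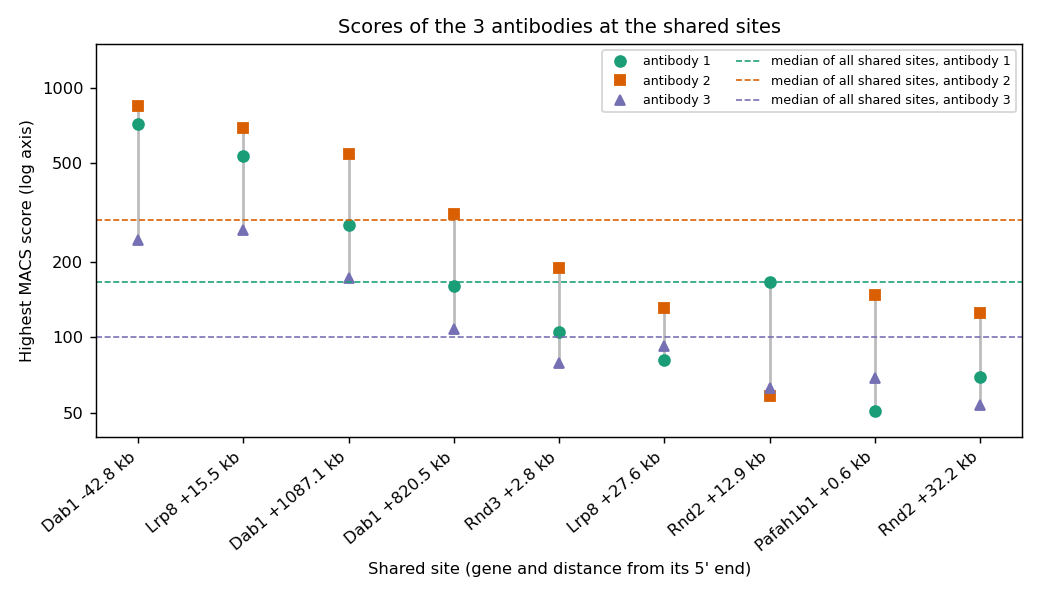
Highest MACS score of each antibody (y axis, log scale) at the 9 shared sites of the list (x axis, by gene and distance from its 5′ end, in order of the summed score), with dashed lines at the median of all 2088 shared sites for each antibody. The upstream and intron 9 sites of Dab1 and the first Lrp8 site lie above all 3 medians, and the Rnd2 site at 12.9 kb is the only one where antibody 1 is highest.

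Across the 9 shared sites, antibody 2 gave the highest score at 8, against 85.0% of all shared sites, and antibody 3 the lowest at 6, against 81.7%. Scores were not scaled between libraries, and the part of read depth in this order was not tested. A score of at least 100 with every antibody was reached by 4 of the 9 sites, the 3 of Dab1 and the first of Lrp8, and by 45.7% of all shared sites. The other 5 sites had summed scores between 248.85 and 374.52 and ranked from 1631 to 1979 of 2088. The median sum was 374.52 for the list and 572 for all shared sites, whose sums ranged from 163.66 to 8439.73. All 9 shared sites also stand in the deposited table with the same limits, and in each the score given there was the sum of its peak scores.

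The number of E-boxes was taken over the middle 200 bp of a site and over windows of 200 bp starting 2000 bp outside its edges. The 9 shared sites held a median of 2 central E-boxes, with a range from 0 to 5, and a mean of 2, against a mean of 1.33 in their 18 flanking windows. All shared sites of the series also had a median of 2, with a mean of 2.44 in the centre and 1.15 in the flanks. The 8 sites of 2 antibodies around the listed genes had a mean of 2.5 in the centre and 1.19 in the flanks. No E-box was present in the central 200 bp of 2 of the 9 shared sites, those of Rnd3 and Pafah1b1, as in 10.8% of all shared sites.

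**Figure D4:**
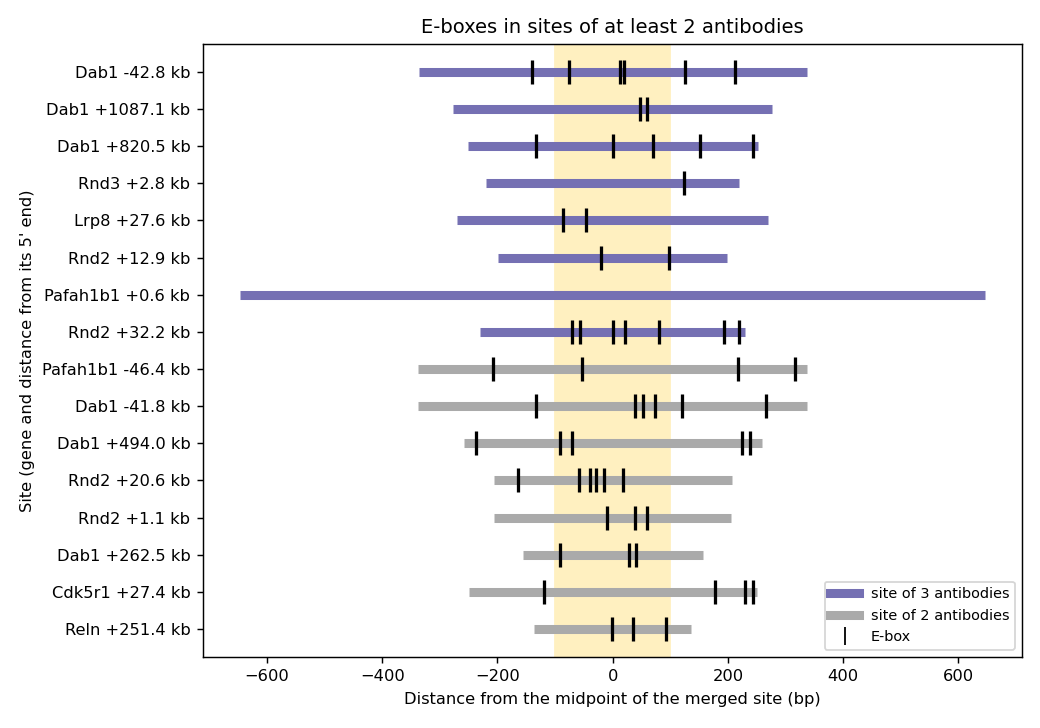
Position of each E-box (tick) relative to the midpoint of the merged site in bp (x axis) in 8 of the 9 shared sites (purple bars; the first Lrp8 site is not drawn) and the 8 sites of 2 antibodies (grey bars) around the listed genes, with bars as long as the sites and the central 200 bp shaded. The Pafah1b1 promoter site holds none, and the Rnd2 site at 20.6 kb has 5 in the shaded window.

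The form of the E-box was read from the complete sites on both strands, with the form CAGATG standing also for its reverse complement CATCTG. Of the 32 E-boxes in the 9 shared sites, 16 were CAGATG, or 50%, against 27.3% of the 10571 E-boxes in all shared sites. The palindrome CAGCTG made up 5, or 15.6%, against 21.4%. In the 8 sites of 2 antibodies around the listed genes, 8 of 34 E-boxes were CAGATG, or 23.5%, against 26.4% in all sites of 2 antibodies, so that the higher share was not seen there. CAGATG was present in 8 of the 9 shared sites, all but that of Pafah1b1, and in 72.8% of all shared sites. Leaving out 1 site at a time, a setting chosen after seeing the data, gave shares from 40% (10 of 25, without the site that held the most CAGATG) to 60%. Where CAGATG or CAGCTG lies at a site is a description of its letters and does not show which E-box was bound.

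**Figure D5:**
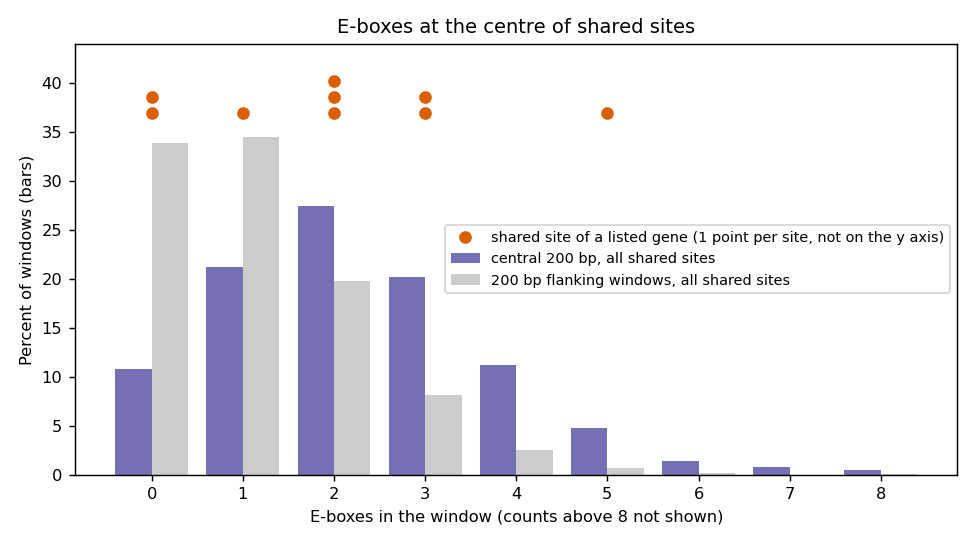
Percent of windows (y axis) with each number of E-boxes (x axis) in the central 200 bp of all 2088 shared sites (purple bars) and in their flanking windows (grey bars), with 1 point above the bars for each of the 9 shared sites of the listed genes. The points lie at 0 (2 sites), 1 (1 site), 2 (3 sites), 3 (2 sites) and 5 (1 site).

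Beyond the 9 genes, 33 further genes of the pathway were listed by their known roles, with earlier results of these data known. In the same span, 10 of them had a shared site, with 14 sites in all, against 15.6% of protein-coding genes. Within the gene body, 5 of the 33 had one. By length, a shared site lay in the span of 26.3% of the 19 long genes, 28.6% of the 7 of middle length and 42.9% of the 7 short ones. The shares of all protein-coding genes of these lengths were 19.2%, 15.3% and 12.3%. Among 8 genes for kinases and signalling proteins that act on or after DAB1, 2 had a shared site in the span, Fyn and Rapgef1. Fyn, a kinase that phosphorylates DAB1, had a promoter site scoring 234.62, 988 and 324.03. Rapgef1, which activates the small GTPase RAP1, had a summed score of 620.16 at a site between genes, 15527 bp from the gene start. All 3 microtubule genes had a shared site in the span, compared with none at Dcx. These were Dclk1 (968.98, in an intron), the tubulin gene Tuba1a (333.22) and Map1b (284.34, at its promoter). The Tuba1a site lay outside the gene body, 29802 bp from the gene start. The kinase gene Cdk5 had a sum of 1311.31, at a site closer to Tmub1, while the second activator Cdk5r2 had no shared site, as Cdk5r1. Rnd1, the third Rnd gene, had 562.53 at a site closer to Cacnb3, and the cadherin gene Cdh2 had 586.14 at its promoter. Of the 4 transcription factors of the list, Zbtb18 had the highest sum at 3538.99, rank 25 of 2088. Tbr1, which activates Reln, had 319.01 at a site between genes, 12993 bp from the gene start. No shared site lay around the 4 genes for other ligands, the protease and integrins (Thbs1, Adamts3, Itga3, Itgb1), the 3 genes for DAB1 turnover (Cul5, Socs7, Rnf7) or the 4 partners of Pafah1b1 (Nde1, Ndel1, Dync1h1, Ywhae), although 8 of these 11 had a peak of at least 1 antibody.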

How the data were processed

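Reads had been aligned by the authors with Bowtie (build mm10, GRCm38), and MACS had been run by them on the library of each antibody against the GFP control. In the deposited peak lists a peak has 1 score, −10 × log10 of the MACS p-value, and the authors' deposited table of shared sites gives 1 score per site. From these files, peaks sharing at least 1 bp were merged, and merged sites were assigned to a gene when they overlapped its body plus 50 kb in GENCODE M21. Locations follow the midpoint, with promoters within 1000 bp of a TSS. The listed genes, the further pathway genes and the measures were chosen with earlier results of these data known. All listed genes are described with every site of 2 or more antibodies, and sites of 1 antibody by range, except at own promoters or where singled out after their values were seen. Merging and E-box counting were tested on simulated data. The antibodies were treated as repeats of 1 measurement, and no statistical test was made. Alternatives concerned the score threshold, overlap, span, E-box window and each antibody in turn. Sequences are printed for 7 chosen sites, and that of 1 further site and the name of 1 neighbouring gene are not reported here. Python 3.11.15, numpy 2.4.6 and matplotlib 3.10.9 were used.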

Additional observations from a re-analysis of the deposited data

How the results depend on the processing

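With a score of at least 100 required of every peak, 2 listed genes (Dab1 and Lrp8) kept a shared site, with 4 shared and 22 merged sites, beside 7.53% of protein-coding genes and 5 of the further pathway genes, and the median number of central E-boxes was 2.5. Counting gene bodies alone gave 24 merged sites, 5.20% of protein-coding genes and 5 further pathway genes, and bodies plus 10 kb gave 7.52% and 6 genes. With 100 kb on each side, the share of protein-coding genes was 23.6% and Cdk5r1 joined as the sixth listed gene. Leaving out each antibody in turn gave 5 to 7 listed genes, 9 to 17 shared and 18 to 39 merged sites, and 15.7% to 25.4% of protein-coding genes. Without antibody 3, Reln and Cdk5r1 joined (7 genes, 17 shared sites), and without antibody 2 the merged sites numbered 18. The median number of E-boxes was 1 in the central 100 bp, and 1 when E-boxes of the form CAGCTG or CAGATG (either strand) alone were counted. Keeping only sites whose closest protein-coding TSS was the listed gene's, an alternative chosen after seeing the data, left 5 genes, 7 shared and 30 merged sites. An overlap of at least 50% of the shorter peak and the deposited table both gave 5 genes and 9 shared sites. The cause of these changes was not tested beyond what each alternative removes by construction. No paired analysis was made, because the same GFP control served every NEUROD2 library and no test was made. The unknown read depth limits any statement on genes without a peak, such as Dcx.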
